A study of Zea mays with 6 samples.

Results

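The nitrogen uptake and assimilation genes of maize were examined in root tips of plants under negative pressure irrigation (NPI) and of plants under a comparison irrigation called DI. Members were all genes whose name or product description in the deposited table contains nitrate, nitrite, NRT1, ammonium transporter, glutamine synthetase, glutamate synthase, asparagine synthetase or glutamate dehydrogenase, which gave 124 of 45953 genes. They comprised 88 uptake genes (transporters), 8 reduction genes (nitrate and nitrite reductases), 23 assimilation genes (enzymes that build amino acids from ammonium) and 5 genes that match the words for other reasons. The rule used names alone and no measured value.

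There were 3 NPI libraries (NPI-1, NPI-2 and NPI-3) and 3 DI libraries (DI-1, DI-2 and DI-3) of poly(A) RNA from maize (Zea mays) root tips. In NPI the soil draws water from a supply kept below atmospheric pressure. DI stands for deficit irrigation in the treatment label but for drip irrigation in the sample description, and it is not spelled out further here. Variety, plant age, nitrogen supply and the duration of irrigation are not given in the sources used here, nor is it said whether the libraries came from separate plants. The p-values therefore cover the variation among these libraries alone, and that variation may be technical.

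Roots take up nitrate through transporters of the NRT2 family, which work at low external nitrate, and of the large NPF family (nitrate transporter 1 and peptide transporter family), and they take up ammonium through AMT transporters. Inside the cell nitrate reductase makes nitrite and nitrite reductase makes ammonium, which glutamine synthetase and glutamate synthase fix into amino acids, while asparagine synthetase makes asparagine, a form in which nitrogen is stored and moved. Many NPF proteins carry other cargo, among them peptides, hormones and chloride, so membership of that family does not by itself make a gene a nitrate transporter.

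Total estimated counts ran from 57792439 to 71957443 per library. The DI libraries correlated with one another at Pearson r of 0.936 to 0.957 across log2(FPKM + 1) of 21902 tested genes, which are not independent replicates, and NPI-1 and NPI-3 correlated at 0.901. NPI-2 stood apart from the other NPI libraries: it correlated with the DI libraries at 0.854 to 0.882 and with NPI-1 and NPI-3 at 0.838 and 0.814. NPI-1 and NPI-3 correlated with the DI libraries at 0.772 to 0.856 and 0.815 to 0.878, ranges that overlap that of NPI-2. Counts of calls, medians of the roles and calls that end or begin without NPI-2 are therefore given both ways. FPKM (fragments scaled for transcript length and sequencing depth) is the scale of every level below, and log2 differences are NPI minus DI from edgeR's quasi-likelihood fit.

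Markers of root cell types differed between the libraries. The 4 genes described as root cap genes, none at 0 in all libraries, summed to 28.0, 141 and 39.7 FPKM in NPI-1, NPI-2 and NPI-3, against 231, 157 and 111 FPKM in DI-1, DI-2 and DI-3. For the 26 meristem (cell division) genes, of which 2 were at 0 throughout, the sums were 148, 259 and 149 FPKM in NPI and 236, 268 and 214 FPKM in DI. The 75 xylem genes, 23 of them at 0 throughout, summed to 807, 384 and 993 FPKM in NPI and to 440, 461 and 556 FPKM in DI. On all 3 lists NPI-2 lay among or beside the DI libraries. Sums of the 18 root hair genes overlapped, at 96.7 to 147 FPKM in NPI and 133 to 152 FPKM in DI, with 1 gene at 0 throughout, and those of the 6 endodermis genes ranged over 1.87 to 5.80 FPKM in NPI and 0.85 to 4.33 FPKM in DI. The 69 green tissue genes, 7 at 0 throughout, summed to 193 to 222 FPKM in NPI and to 133 to 261 FPKM in DI. In such bulk samples fewer cells of a type and less RNA per cell cannot be told apart, and the part of cell type proportions in the results below was not tested.

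NPF transporters, which made up 40 of the 49 tested uptake genes, mostly had higher fitted levels in NPI root tips (29 higher, 11 lower). NRT2-type genes (1 higher, 2 lower) and ammonium transporters (3 higher, 2 lower) showed no common direction. Genes of nitrate reduction and ammonium assimilation mostly had lower fitted levels. No member passed the edgeR threshold. A mean of at least 1 FPKM over the 6 libraries was needed for testing, and 71 members met it. In 3 of these only the NPI mean reached 1 FPKM, and in 3 others only the DI mean did. Of the 53 members below the limit, 19 had no count in any library and 34 had some. Those just below were 3 NPF genes with 1 group mean on each side of it: Zm00001d038179 (NPF3.1) at 0.25 FPKM in NPI and 1.54 in DI, Zm00001d003208 (NPF4.2) at 0.21 in NPI and 1.28 in DI, and Zm00001d034674 (NPF5.6) at 1.31 in NPI and 0.14 in DI. Just above it were Zm00001d038186 (NPF3.1), with 0.77 FPKM in NPI and 1.28 in DI, and Zm00001d002271, with 1.80 in NPI and 0.327 in DI.

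Among the tested members, 34 of 49 uptake genes lay above 0 in log2 difference, with a median of 0.53, while 0 of 6 reduction genes did, with a median of -0.81, and 3 of 13 assimilation genes did, with a median of -0.63. Across all tested genes 54% lay above 0 and the median was 0.07. The sign held with each library left out in 46 of the 71 tested members, and it turned in 20 uptake, 1 reduction and 3 assimilation genes and in 1 gene classed as other. Without NPI-2 the medians were 0.50 for uptake, -0.48 for reduction, where 1 gene was then above 0, and -0.67 for assimilation. The medians in single NPI libraries against the DI mean, on the log2 CPM scale, were 0.41, 0.12 and 0.50 for uptake genes in NPI-1, NPI-2 and NPI-3. For reduction genes they were -1.13, -2.12 and 0.14, so NPI-3 did not share the lower level. Assimilation genes had medians of -0.88, -1.10 and -0.46 in NPI-1, NPI-2 and NPI-3, on the same side of 0 in each.

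**Figure D1:**
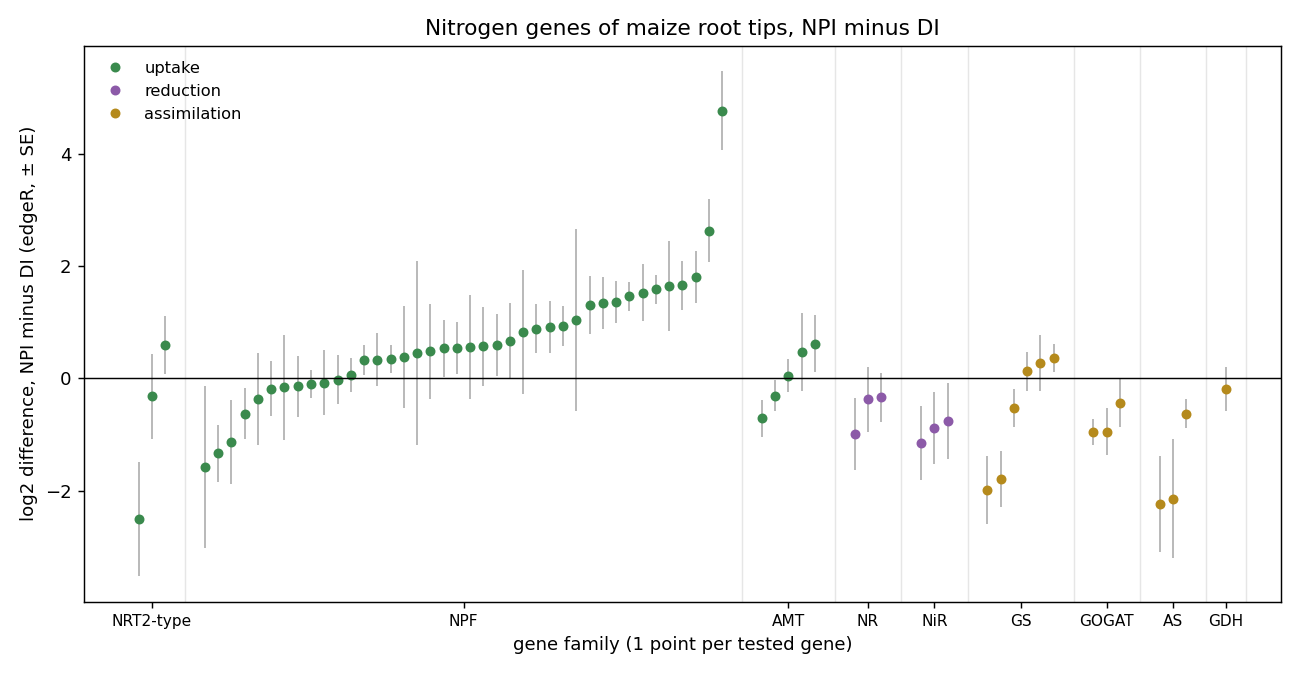
Log2 difference (NPI minus DI, edgeR fit) of each tested nitrogen gene, ordered by size within its family, with bars of ± 1 standard error. Families are NRT2-type transporters, NPF transporters, ammonium transporters (AMT), nitrate reductase (NR), nitrite reductase (NiR), glutamine synthetase (GS), glutamate synthase (GOGAT), asparagine synthetase (AS) and glutamate dehydrogenase (GDH). Most NPF points lie above 0, and every NR, NiR, GOGAT and AS point lies below it, although none passed the threshold.

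With Benjamini-Hochberg adjustment over all 21902 genes, edgeR called 0 of the 71 tested members, where it called 0.0137% of all tested genes, and the smallest adjusted p of a member was 0.0674. At an unadjusted p under 0.05, 14 members were higher, where 12.3% of all tested genes were, and 7 lower, where 8.52% were. DESeq2 called 11 members higher (6.84% of all tested genes) and 4 lower (4.53%). A limma fit of log2(FPKM + 1) called 0 members (0.63% of all tested genes in both directions). Without NPI-2, edgeR called 8 members higher, where 6.65% of all tested genes were called higher, and 0 lower, where 5.19% were. Of these 8, 7 were also called by DESeq2. The 3 NPI and 3 DI values did not overlap in 14 members that were higher, beside 13% of all tested genes, and in 8 that were lower, beside 13.7%. The share of lower members without overlap thus lay near the background.

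Of the NPF family, 70 genes were members and 40 were tested, of which 29 had a higher and 11 a lower fitted level in NPI (median log2 difference 0.55). The summed level of all 70 genes was 844, 461 and 647 FPKM in NPI-1, NPI-2 and NPI-3, against 385, 398 and 498 FPKM in DI-1, DI-2 and DI-3. The groups overlapped, because NPI-2 lay below DI-3. Means were 651 ± 192 FPKM in NPI and 427 ± 61.5 FPKM in DI (SD, n = 3 each). The gene with the largest share of that sum, Zm00001d033528, made up 10.8 ± 2.94% of it in NPI libraries and 7.26 ± 1.87% of it in DI libraries (SD, n = 3 each), so no single gene carried the total. Among the 3 NPI libraries, NPI-1 held the highest level of 19 of the 40 tested NPF genes, NPI-2 of 10 and NPI-3 of 11.

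The member with the smallest p was Zm00001d044529 on chromosome 3 (230995475 to 230998102), described as NPF6.2, a relative of an Arabidopsis nitrate transporter of leaf petioles. It had 9.72, 7.61 and 2.77 FPKM in NPI-1, NPI-2 and NPI-3, against 0.19, 0.12 and 0.43 FPKM in DI-1, DI-2 and DI-3. All NPI libraries lay above all DI libraries, which were at 0.43 FPKM or less. The log2 difference was 4.77 (SE 0.70, edgeR adjusted p = 0.0674), and 4.74 without NPI-2 (edgeR adjusted p = 0.0281).

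Zm00001d024587 on chromosome 10 (79465955 to 79472158) is described as NPF6.3, whose Arabidopsis counterpart is a dual-affinity nitrate transporter and nitrate sensor. Its levels were 48.8, 44.5 and 34.7 FPKM in the NPI libraries, against 11.5, 16.4 and 16.7 FPKM in the DI libraries. The groups were well apart, and NPI-2 lay with the other NPI libraries here. The log2 difference was 1.58 (SE 0.25, edgeR adjusted p = 0.0715), and 1.63 without NPI-2 (edgeR adjusted p = 0.0275). The other tested genes of that description did not share this: Zm00001d029932 averaged 2.93 ± 1.81 FPKM in NPI and 2.36 ± 0.434 FPKM in DI, and Zm00001d027285 averaged 2.37 ± 2.88 FPKM in NPI and 2.98 ± 0.832 FPKM in DI (SD, n = 3 each). Their log2 differences of 0.33 and -0.37 were -0.12 and -1.92 without NPI-2.

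Also near the threshold was Zm00001d032740 on chromosome 1 (237003744 to 237006992), described as NPF5.2. It showed 8.51, 11.7 and 7.02 FPKM in NPI and 3.25, 3.74 and 3.19 FPKM in DI. Every NPI library was above every DI library, and NPI-2 was the highest of the 6. The log2 difference was 1.46 (SE 0.26, edgeR adjusted p = 0.0728), and 1.34 without NPI-2 (edgeR adjusted p = 0.0319). Another tested NPF5.2 gene, Zm00001d014060, had 1.86, 21.9 and 16.1 FPKM in NPI and 6.78, 3.24 and 3.07 FPKM in DI. Its groups overlapped, with NPI-1 below every DI library (log2 difference 1.645, SE 0.798, edgeR adjusted p = 0.287).

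All 6 tested NPF4 genes had higher fitted levels in NPI (median log2 difference 1.19), although 2 of them turned sign with a library left out. Zm00001d003603 (NPF4.4, chromosome 2, 49591583 to 49595579) had 32.2, 13.5 and 35.2 FPKM in NPI-1, NPI-2 and NPI-3, against 2.45, 4.35 and 7.26 FPKM in DI. NPI-2 was the lowest of the NPI libraries and still above DI-3, the highest of the DI libraries (log2 difference 2.63, SE 0.57, edgeR adjusted p = 0.0935, and 0.0275 without NPI-2). The second NPF4.4 gene, Zm00001d007255, averaged 3.64 ± 0.986 FPKM in NPI and 1.33 ± 0.70 FPKM in DI (SD, n = 3 each), also without overlap (log2 difference 1.53, edgeR adjusted p = 0.17). The third, Zm00001d049349, had 5.06, 6.76 and 4.31 FPKM in NPI and 5.07, 3.85 and 4.35 FPKM in DI. Its groups overlapped (log2 difference 0.32, edgeR adjusted p = 0.516). Zm00001d046383 is described as NPF4.6, which in Arabidopsis carries nitrate and abscisic acid, and averaged 2.98 ± 1.25 FPKM in NPI and 1.27 ± 0.15 FPKM in DI (SD, n = 3 each; log2 difference 1.34, edgeR adjusted p = 0.181). The other tested NPF4.6 genes overlapped between groups. Zm00001d036941 had 1.41, 0.13 and 2.93 FPKM in NPI and 0, 0.77 and 1.64 FPKM in DI (log2 difference 1.05, edgeR adjusted p = 0.745, and -0.019 to 2.15 with a library left out). Zm00001d036942 had 1.68, 0.14 and 3.93 FPKM in NPI and 0.50, 0.90 and 2.23 FPKM in DI (log2 difference 0.82, edgeR adjusted p = 0.704, and -0.37 to 1.63 with a library left out). NPI-2 was the lowest NPI library in both, and these 2 genes lie close together, so that their counts may be shared.

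Genes described as NPF3.1, known in Arabidopsis for transport of gibberellin in the root, varied among themselves. Zm00001d038181 (chromosome 6, 150745127 to 150748423) had 43.4, 16.3 and 28.6 FPKM in NPI and 11.8, 7.57 and 10.4 FPKM in DI. Zm00001d045667 (chromosome 9, 32539610 to 32542534) had 48.8, 22.4 and 21.6 FPKM in NPI and 11.8, 13.3 and 12.8 FPKM in DI. Both were higher in all NPI libraries than in any DI library, with log2 differences of 1.65 (SE 0.43, edgeR adjusted p = 0.119) and 1.36 (SE 0.37, edgeR adjusted p = 0.128), which became 1.98 and 1.60 without NPI-2, where both passed (edgeR adjusted p = 0.0270 and 0.0385). Other NPF3.1 genes of chromosome 6 differed from them: Zm00001d038186 averaged 0.77 ± 0.276 FPKM in NPI and 1.28 ± 0.321 FPKM in DI (SD, n = 3 each), and Zm00001d038185 had 0, 7.99 and 0.39 FPKM in NPI against 2.61, 2.18 and 0.99 FPKM in DI (log2 difference 0.46, and -3.1 without NPI-2). Zm00001d038180, 25805 bases from Zm00001d038181, had 9.27, 1.68 and 1.16 FPKM in NPI and 1.75, 2.6 and 4.69 FPKM in DI. Its groups overlapped (log2 difference 0.48, edgeR adjusted p = 0.782, and -1.05 to 0.97 with a library left out). Members lay within 100 kb of one another in 16 pairs of the 124 genes, and where a pair consists of similar copies their counts may be shared. Not every pair does: Zm00001d010195 (NPF5.10) lies 688 bases from Zm00001d010196, an asparagine synthetase gene.

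**Figure D2:**
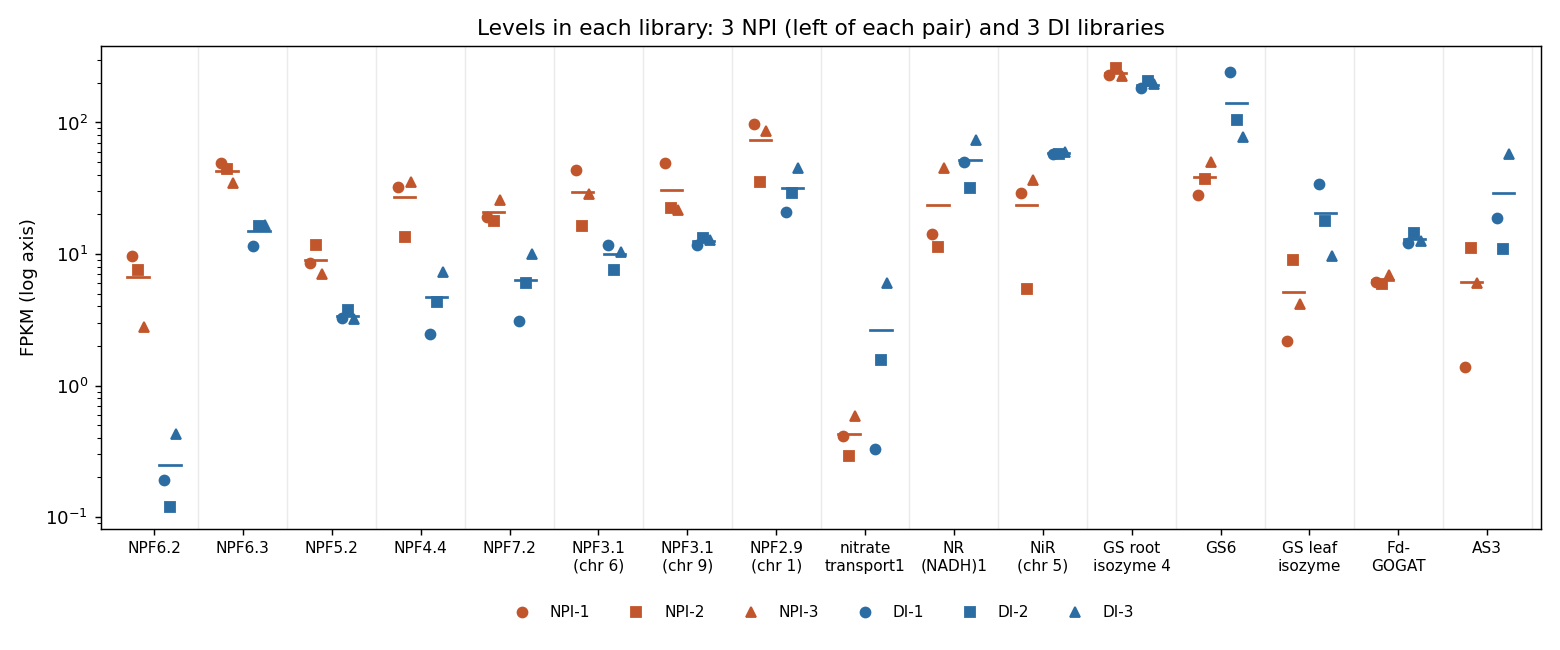
Level (FPKM, log axis) of 16 nitrogen genes in each library, with NPI libraries left of DI libraries and a short line at each group mean. Some of the genes were named by rule and the others were picked after their values were seen, so their separation does not describe the families. The NPF genes at the left, except NPF2.9, have all NPI points above all DI points. NiR of chromosome 5, GS6, the leaf isozyme of glutamine synthetase and ferredoxin-dependent glutamate synthase (Fd-GOGAT) have all NPI points below all DI points. Of the 40 tested NPF genes, 11 were higher and 1 lower without overlap, beside 13% higher and 13.7% lower of all tested genes.

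NPF7.2 and NPF2.9 act in long-distance nitrate transport in Arabidopsis, where the first retrieves nitrate from the xylem and the second loads it into the phloem. Zm00001d017666 (NPF7.2, chromosome 5, 203485525 to 203489990) had 19.2, 18.0 and 25.7 FPKM in NPI and 3.11, 6.0 and 9.96 FPKM in DI. The NPI libraries all lay above the DI libraries (log2 difference 1.81, SE 0.46, edgeR adjusted p = 0.116, and 0.0523 without NPI-2). The second NPF7.2 gene, Zm00001d019294, had 9.52, 7.60 and 2.91 FPKM in NPI and 3.35, 3.41 and 4.33 FPKM in DI, with NPI-3 below every DI library (log2 difference 0.88, SE 0.43, edgeR adjusted p = 0.291). Zm00001d033528 (NPF2.9, chromosome 1, 265772256 to 265790869), the NPF member with the highest mean level, had 96.9, 35.1 and 86.7 FPKM in NPI and 20.7, 29.0 and 45.4 FPKM in DI. NPI-2 lay within the DI values, so the groups overlapped, with a log2 difference of 1.3 (SE 0.52, edgeR adjusted p = 0.219) and of 1.67 without NPI-2 (edgeR adjusted p = 0.0413). The second NPF2.9 gene, Zm00001d013529, averaged 58.5 ± 32.3 FPKM in NPI and 33.6 ± 3.56 FPKM in DI (SD, n = 3 each; log2 difference 0.92, edgeR adjusted p = 0.302), and NPI-2 at 31.9 FPKM was again level with DI. Among the NPI libraries, the summed xylem, root hair and endodermis markers were each also lowest in NPI-2, while those of root cap, meristem and green tissue were highest in it. For endodermis the margin was small (1.87 FPKM in NPI-2 and 2.01 FPKM in NPI-1), and only 1 of its 6 genes had a mean of at least 1 FPKM. The part of these markers in the NPF7.2 and NPF2.9 values was not tested.

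NPF8 members, whose Arabidopsis counterparts carry dipeptides, had 4 higher and 4 lower genes of 8 tested, with a median log2 difference of 0.02 and values between -0.18 and 0.54 with all libraries. Single libraries moved several of them: Zm00001d030233 was at 0.38 and, without NPI-2, at -1.11, Zm00001d017713 ranged over -1.75 to 0.37 with a library left out, and Zm00001d008604 over 0.32 to 1.02. Zm00001d030159, the most abundant of them, had 38.6, 46.2 and 48.0 FPKM in NPI and 55.1, 46.5 and 47.9 FPKM in DI. The 8 NPF8 genes include none whose groups did not overlap. In the other groups, 5 of 6 NPF5, 4 of 6 NPF6, 4 of 5 NPF3, 3 of 3 NPF7 and 2 of 3 NPF2 genes were higher in NPI. Of the 9 peptide and nitrate transporters without an NPF number, 3 were tested, with 1 higher and 2 lower. Among all tested genes 54% lay above 0. Without NPI-2, 6 of 6 NPF5 and 3 of 5 NPF3 genes were higher, and the other counts held. The 3 NPF1 members were below the limit for testing. The differences between these groups of NPF genes were not tested.

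The NPF member with the smallest p among those lower in NPI was Zm00001d052435 on chromosome 4 (189981671 to 189987040), described as a probable peptide and nitrate transporter. It had 20.6, 6.27 and 6.72 FPKM in NPI and 24.0, 39.2 and 26.5 FPKM in DI, with no overlap (log2 difference -1.34, SE 0.51, edgeR adjusted p = 0.207). It was the only NPF gene lower in NPI without overlap among those tested, beside 11 that were higher, where 13.7% of all tested genes were lower and 13% higher without overlap. Zm00001d007785 on chromosome 2 (239555702 to 239557531), described as a nitrate and chloride transporter and classed outside the NPF family, had 7.00, 7.04 and 1.3 FPKM in NPI and 0.58, 1.59 and 1.25 FPKM in DI. NPI-3 lay within the DI range, and the log2 difference was 2.18 (SE 0.68, edgeR adjusted p = 0.154).

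High-affinity nitrate uptake genes showed no common direction. Of 9 NRT2-type members 3 were tested, and 2 had no counts in any library. Zm00001d017095 (chromosome 5, 185262626 to 185263851), described as a high affinity nitrate transporter and the most abundant of them, had 5.22, 54.0 and 15.7 FPKM in NPI-1, NPI-2 and NPI-3, against 47.0, 17.3 and 27.7 FPKM in DI. Both the highest and the lowest of the 6 values were in NPI libraries (log2 difference -0.32, SE 0.75, edgeR adjusted p = 0.838). Nitrate transport4 (Zm00001d003287) had 6.84, 13.4 and 7.04 FPKM in NPI and 10.5, 3.33 and 4.51 FPKM in DI (log2 difference 0.60, SE 0.52, edgeR adjusted p = 0.54), with overlapping groups. Nitrate transport1 (Zm00001d054060, chromosome 4, 245649222 to 245650796) had 0.41, 0.29 and 0.59 FPKM in NPI and 0.33, 1.57 and 6.01 FPKM in DI, with DI-3 well above the other 5 libraries (log2 difference -2.51, SE 1.02, edgeR adjusted p = 0.225). Nitrate transport2 (Zm00001d054057), which lies 9385 bases from it, averaged 0.0733 FPKM in NPI and 0.447 FPKM in DI and was below the limit for testing.

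Ammonium transporters also divided. Ammonium transporter1 (Zm00001d025831, chromosome 10, 131243971 to 131245467) had 42.7, 27.9 and 52.1 FPKM in NPI and 67.1, 70.1 and 77.7 FPKM in DI. All NPI libraries were below all DI libraries (log2 difference -0.71, SE 0.33, edgeR adjusted p = 0.273). Ammonium transporter 2 (Zm00001d034782, chromosome 1, 302188639 to 302191274), with the highest mean of the family over the 6 libraries, averaged 55.8 ± 12.3 FPKM in NPI and 56.9 ± 8.21 FPKM in DI (SD, n = 3 each; log2 difference 0.05, SE 0.29, edgeR adjusted p = 0.941). Another gene of that description, Zm00001d038412, had 17.6, 6.36 and 14.6 FPKM in NPI and 6.22, 7.06 and 13.7 FPKM in DI, with overlap (log2 difference 0.61, edgeR adjusted p = 0.522). The 8 genes summed to 125 ± 26.0 FPKM in NPI and 155 ± 19.1 FPKM in DI (SD, n = 3 each), with overlapping values.

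**Figure D3:**
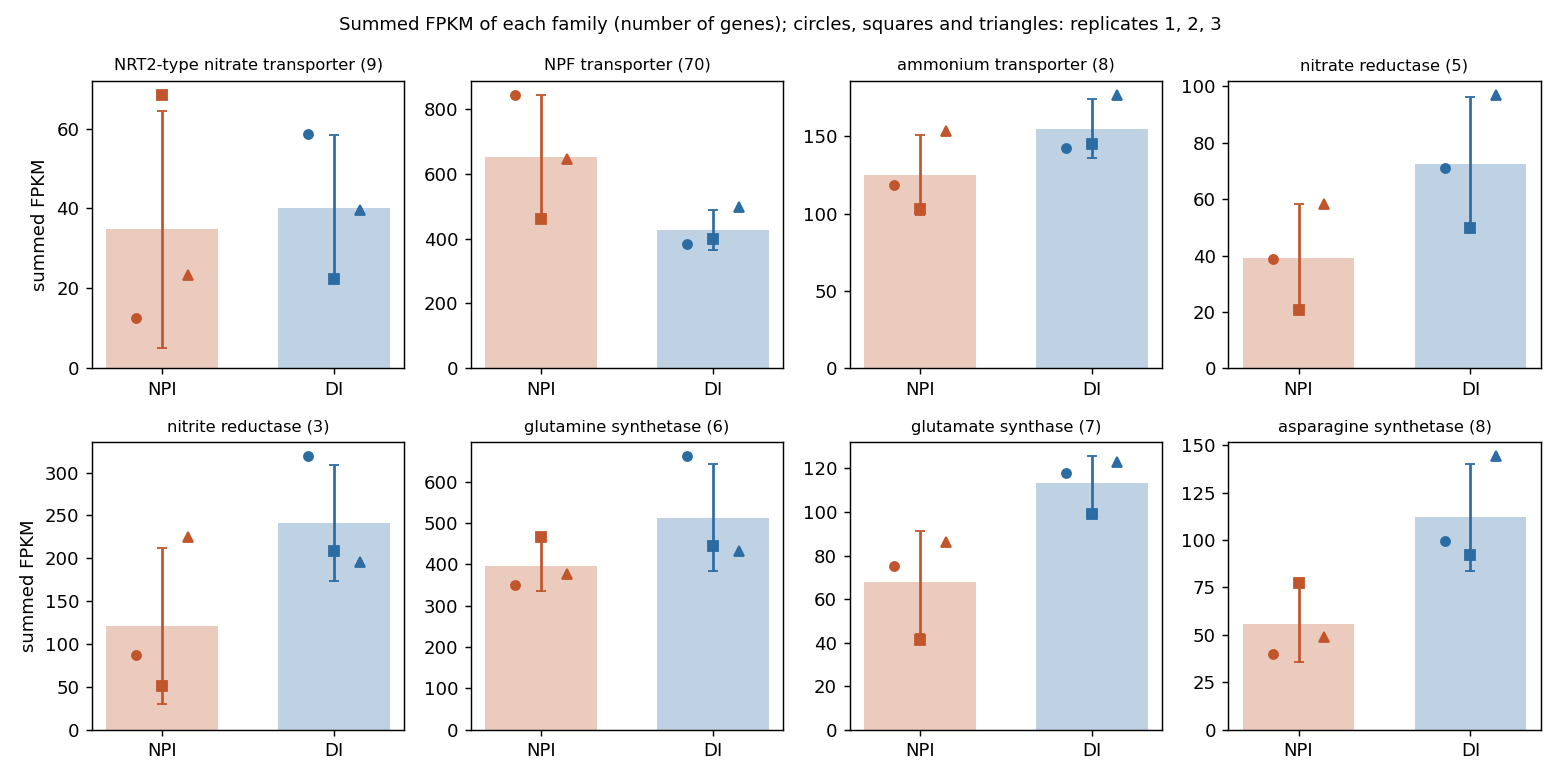
Summed FPKM of each family in every library, with the number of genes in brackets; bars are group means, error bars ± SD of 3 libraries, and circles, squares and triangles are replicates 1, 2 and 3. Only glutamate synthase and asparagine synthetase have all NPI points below all DI points, and the NPF sum is higher in NPI-1 and NPI-3 than in any DI library.

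Nitrate reductase genes had lower fitted levels in NPI, within a wide spread. Nitrate reductase(NADH)1 (Zm00001d049995, chromosome 4, 58642687 to 58647338) had 14.1, 11.4 and 45.4 FPKM in NPI-1, NPI-2 and NPI-3, against 49.6, 31.5 and 73.4 FPKM in DI-1, DI-2 and DI-3. NPI-1 and NPI-2 were below every DI library and NPI-3 was among them (log2 difference -0.99, SE 0.64, edgeR adjusted p = 0.414, and -0.62 without NPI-2). The genes described as nitrate reductase [NADH] 2 averaged 12.6 ± 7.53 FPKM in NPI and 16.8 ± 2.83 FPKM in DI for Zm00001d018206, and 2.72 ± 1.61 FPKM in NPI and 3.86 ± 0.693 FPKM in DI for Zm00001d031769 (SD, n = 3 each), both with overlap. Without NPI-2 the log2 difference of Zm00001d031769 was 0.06, against -0.38 with it. The remaining 2 nitrate reductase genes averaged at most 0.24 FPKM in either group.

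Nitrite reductase, a plastid enzyme that uses ferredoxin as electron donor, also had lower fitted levels in NPI in all 3 of its genes. Zm00001d018161 (chromosome 5, 215727084 to 215730071) had 29.2, 5.39 and 36.4 FPKM in NPI and 57.2, 57.3 and 59.7 FPKM in DI. All NPI libraries were lower, NPI-2 by far the most, while the DI values were nearly equal (log2 difference -1.16, SE 0.66, edgeR adjusted p = 0.353). Without NPI-2 the log2 difference was -0.67 (edgeR adjusted p = 0.0948). Zm00001d052164 (chromosome 4, 181552538 to 181556093) had 53.3, 33.7 and 158 FPKM in NPI and 231, 117 and 106 FPKM in DI, so that NPI-3 exceeded DI-2 and DI-3 (log2 difference -0.75, SE 0.68, edgeR adjusted p = 0.555). Nitrite reductase2 (Zm00001d052165) overlaps it by 3364 bases on the same strand, so their reads cannot be told apart with certainty; it averaged 15.6 ± 13.2 FPKM in NPI and 31.4 ± 2.08 FPKM in DI (SD, n = 3 each). The sum of the 8 reduction genes was 126, 71.6 and 283 FPKM in NPI, against 390, 258 and 293 FPKM in DI, and only NPI-3 lay within the DI range.

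**Figure D4:**
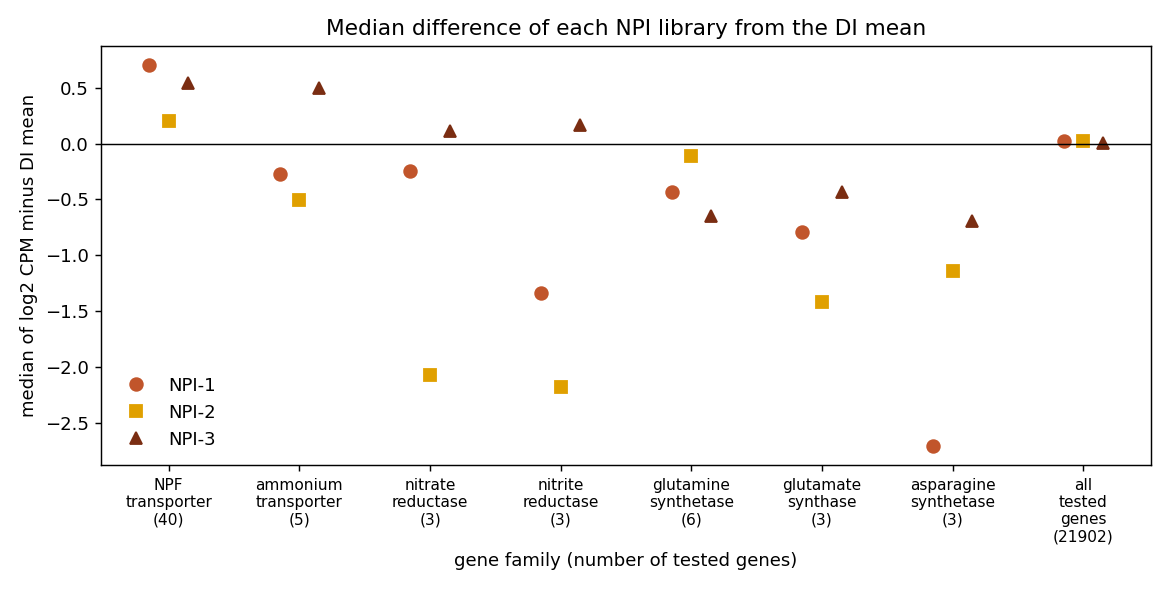
Median over the tested genes of each family of the difference between a single NPI library and the DI mean, in log2 CPM with a prior count of 1; numbers of tested genes are in brackets, NRT2-type genes and glutamate dehydrogenase are left out, and the horizontal line marks 0. Nitrate and nitrite reductase medians are near or above 0 in NPI-3 and lowest in NPI-2, glutamate synthase and asparagine synthetase medians are below 0 in all 3 libraries, and NPF medians are above 0 in all 3.

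Glutamine synthetase, which joins ammonium to glutamate, had isozymes on both sides of 0. Root isozyme 4 (glutamine synthetase5, Zm00001d051804, chromosome 4, 170036696 to 170039992), the most abundant member in every NPI library, had 228, 260 and 226 FPKM in NPI and 183, 206 and 194 FPKM in DI. It was higher in all NPI libraries by a small margin (log2 difference 0.36, SE 0.25, edgeR adjusted p = 0.447). Glutamine synthetase6 (Zm00001d028260, chromosome 1, 28169233 to 28171917) lay the other way, with 28.3, 37.0 and 50.2 FPKM in NPI and 241, 104 and 77.6 FPKM in DI. Every NPI library was below every DI library, and DI-1 stood far above DI-2 and DI-3 (log2 difference -1.79, SE 0.50, edgeR adjusted p = 0.134).

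The plastid isozyme of glutamine synthetase, described as the leaf isozyme (glutamine synthetase1, Zm00001d026501, chromosome 10, 147240629 to 147249381), had 2.18, 8.97 and 4.18 FPKM in NPI and 34.1, 17.7 and 9.62 FPKM in DI. Again no NPI value reached the DI values, although NPI-2 and DI-3 were close (log2 difference -1.99, SE 0.61, edgeR adjusted p = 0.15, and -2.52 with 0.0545 without NPI-2). Root isozyme 3 (glutamine synthetase4, Zm00001d017958) averaged 94.0 ± 26.3 FPKM in NPI and 139 ± 43.0 FPKM in DI (SD, n = 3 each), with overlap (log2 difference -0.53, edgeR adjusted p = 0.405). Root isozyme 2 (Zm00001d033747) had 11.7, 30.7 and 6.29 FPKM in NPI and 15.4, 15.2 and 9.55 FPKM in DI, and its log2 difference of 0.27 was -0.44 without NPI-2. Zm00001d048050 had a log2 difference of 0.12, which ranged over -0.083 to 0.33 with a library left out. All 6 genes summed to 397 ± 60.9 FPKM in NPI and 513 ± 129 FPKM in DI (SD, n = 3 each), with NPI-2 at 465 FPKM above DI-2 and DI-3. Root isozyme 4 made up 65.4, 55.9 and 60.1% of that sum in NPI, against 27.6, 46.4 and 45.0% in DI, without overlap.

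Glutamate synthase (GOGAT) completes the cycle by making glutamate from glutamine and 2-oxoglutarate. The ferredoxin-dependent gene, Zm00001d022388 (chromosome 7, 176589186 to 176606869), had 6.17, 5.90 and 6.96 FPKM in NPI and 12.1, 14.5 and 12.5 FPKM in DI. The NPI values lay close together and all below the DI values, NPI-2 included (log2 difference -0.96, SE 0.24, edgeR adjusted p = 0.113, and 0.0535 without NPI-2). Zm00001d011610, an NADH-dependent gene on chromosome 8 (155807923 to 155820009), had 19.7, 9.65 and 23.1 FPKM in NPI and 38.1, 31.0 and 39.9 FPKM in DI, also without overlap (log2 difference -0.95, SE 0.42, edgeR adjusted p = 0.255). The other, Zm00001d043845 on chromosome 3 (211901764 to 211913666), had 48.9, 25.0 and 56.1 FPKM in NPI and 66.5, 52.8 and 69.8 FPKM in DI, with NPI-3 between the DI values (log2 difference -0.44, SE 0.43, edgeR adjusted p = 0.587).

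These glutamate synthase transcripts are long, at 4.59 to 5.38 times the median tested gene. With a trend of the counts on transcript length removed in each library, the log2 differences of Zm00001d022388, Zm00001d011610 and Zm00001d043845 were -0.60, -0.55 and -0.03. The family sum was 75.3, 41.3 and 86.4 FPKM in NPI, against 118, 99.3 and 123 FPKM in DI, with no overlap.

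Asparagine synthetase genes were lower in NPI in the fit, in 3 of 3 tested genes of 8. Asparagine synthetase1 (Zm00001d045675, chromosome 9, 32681291 to 32690688) had 37.0, 65.2 and 40.4 FPKM in NPI and 78.7, 78.4 and 70.0 FPKM in DI. NPI-2 was nearest to DI but still below DI-3, the lowest DI library (log2 difference -0.63, SE 0.26, edgeR adjusted p = 0.228, and 0.0532 without NPI-2). Asparagine synthetase3 (Zm00001d028750, chromosome 1, 45286331 to 45290076) had 1.38, 11.1 and 6.0 FPKM in NPI and 18.9, 10.9 and 57.8 FPKM in DI. NPI-2 and DI-2 had nearly the same level, so the groups overlapped, and DI-3 was the highest by a wide margin (log2 difference -2.24, SE 0.85, edgeR adjusted p = 0.206). Asparagine synthetase4 (Zm00001d047736) had a log2 difference of -2.14 (SE 1.06, edgeR adjusted p = 0.296), and again DI-3 stood out, at 15.6 FPKM. The NPI libraries had 0.53, 0.87 and 2.67 FPKM, against 1.34 and 2.53 FPKM in DI-1 and DI-2. The 8 genes summed to 39.9, 77.5 and 49.1 FPKM in NPI and 99.6, 92.2 and 144 FPKM in DI.

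Glutamate dehydrogenase, which can release or bind ammonium, had 1 tested member. Zm00001d034420 (glutamic dehydrogenase1, chromosome 1, 292477033 to 292483300) had 7.94, 10.6 and 19.1 FPKM in NPI and 13.3, 17.2 and 15.9 FPKM in DI, and the NPI libraries spanned the whole DI range (log2 difference -0.19, SE 0.39, edgeR adjusted p = 0.813). Glutamic dehydrogenase2 (Zm00001d025984), whose spelling the rule does not match, averaged 75.7 ± 21.3 FPKM in NPI and 135 ± 37.1 FPKM in DI (SD, n = 3 each; log2 difference -0.74, edgeR adjusted p = 0.312). Over all 23 assimilation genes the sum was 472, 595 and 531 FPKM in NPI, against 893, 652 and 715 FPKM in DI. No NPI library reached the lowest DI library, although NPI-2 came nearest to it. The summed root cap, meristem and green tissue markers each had the same order of NPI libraries, with NPI-1 lowest and NPI-2 highest. The xylem, root hair and endodermis sums were instead lowest in NPI-2. None of these lists had the order of the DI libraries seen in the assimilation sum. The part of these markers in the assimilation levels was not tested.

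Under DESeq2, the 4 members called lower were all among the 13 tested assimilation genes: Zm00001d022388, Zm00001d026501, Zm00001d028260 and Zm00001d028750. Of all tested genes 4.53% were called lower. Of the 11 members called higher, 9 were among the 49 tested uptake genes and 2 among the 3 tested genes classed as other. Of all tested genes 6.84% were called higher. The 8 called higher without NPI-2 by edgeR comprised 7 of the 40 tested NPF genes and 1 gene classed as other, beside 6.65% of all tested genes. No reduction gene was called in either, but only 6 were tested. Differences between the roles were not tested.

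Of the 5 genes classed as other, 3 were tested. Zm00001d013370 (chromosome 5, 9971912 to 9974426) is described as a symbiotic ammonium transporter, a name that goes back to a soybean bHLH protein, and its gene name in the table is that of a bHLH transcription factor. It had 10.9, 9.64 and 5.82 FPKM in NPI and 0.76, 1.00 and 2.13 FPKM in DI. All NPI libraries were above DI (log2 difference 2.79, SE 0.48, edgeR adjusted p = 0.0716, and 0.0341 without NPI-2). The genes for nitrate-induced NOI proteins differed from each other: Zm00001d002271 had 3.69, 0.95 and 0.75 FPKM in NPI and 0.42, 0.21 and 0.35 FPKM in DI, while Zm00001d025171 averaged 7.2 ± 1.80 FPKM in NPI and 7.12 ± 1.19 FPKM in DI (SD, n = 3 each). Folylpolyglutamate synthase genes, enzymes of folate metabolism that match only through the spelling, made up the other 2 and were below the limit.

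Genes of the pathway outside the rule were grouped into 12 lists, of which that of PII proteins matched no gene, and edgeR called 0 genes in any of them (0.0137% of all tested genes). Summed over the lists, 15 of 93 tested genes were higher and 12 lower at an unadjusted p under 0.05, where 12.3% and 8.52% of all tested genes were. DESeq2 called 11 higher and 7 lower (6.84% and 4.53% of all tested genes), and limma called 1 higher (0.63% in both directions). Without NPI-2, edgeR called 11 of these genes higher and 5 lower (6.65% and 5.19%). Amino acid permeases, which import amino acids, were mostly on the higher side, as 10 of 11 tested genes with a median log2 difference of 1.20. Amino acid permease 2 (Zm00001d023596) had 24.3, 15.1 and 25.5 FPKM in NPI and 5.08, 6.57 and 3.32 FPKM in DI (log2 difference 2.22, SE 0.39, edgeR adjusted p = 0.0716, and 0.0245 without NPI-2). The lower one was Zm00001d001984 (log2 difference -0.75, edgeR adjusted p = 0.266). PEP carboxylases, and isocitrate dehydrogenases not marked as NAD-dependent, supply carbon skeletons for assimilation, and 12 of 13 tested genes were lower, with a median of -0.52. The exception, PEP carboxylase 1 (Zm00001d046170), had 2.33, 3.1 and 3.73 FPKM in NPI and 0.35, 0.45 and 0.17 FPKM in DI (log2 difference 3.32, SE 0.49, edgeR adjusted p = 0.0698, and 0.0272 without NPI-2). An isocitrate dehydrogenase gene, Zm00001d003083, averaged 9.52 ± 0.592 FPKM in NPI and 16.5 ± 0.329 FPKM in DI (SD, n = 3 each; log2 difference -0.72, edgeR adjusted p = 0.154).

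Ferredoxins and ferredoxin-NADP reductases, which bring electrons to nitrite reductase and ferredoxin-dependent glutamate synthase, had 9 higher and 7 lower genes and a median of 0.22. Ferredoxin2 (Zm00001d035003) averaged 6.61 ± 1.61 FPKM in NPI and 0.637 ± 0.24 FPKM in DI (SD, n = 3 each; log2 difference 3.38, edgeR adjusted p = 0.0715, and 0.0299 without NPI-2), against a log2 difference of -0.58 (edgeR adjusted p = 0.384) for ferredoxin-3 (Zm00001d025352). The oxidative pentose phosphate enzymes, a source of reducing power in roots, had 4 higher and 6 lower genes with a median of -0.28. Phosphogluconate dehydrogenase3 (Zm00001d049187) averaged 23.5 ± 7.55 FPKM in NPI and 54.9 ± 6.34 FPKM in DI (SD, n = 3 each; log2 difference -1.19, edgeR adjusted p = 0.0913, and 0.0299 without NPI-2). Glucose-6-phosphate dehydrogenase (Zm00001d017119) averaged 312 ± 87.3 FPKM in NPI and 194 ± 29.2 FPKM in DI (SD, n = 3 each; log2 difference 0.78, edgeR adjusted p = 0.291, and 1.05 with 0.0483 without NPI-2).

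Siroheme and molybdenum cofactor enzymes had 7 higher and 5 lower genes and a median of 0.07. Siroheme is a prosthetic group of nitrite reductase and molybdenum cofactor of nitrate reductase, but not every enzyme of the list need serve these reductases. Molybdenum cofactor sulfurase (Zm00001d046979) averaged 2.16 ± 0.861 FPKM in NPI and 6.0 ± 0.626 FPKM in DI (SD, n = 3 each; log2 difference -1.44, edgeR adjusted p = 0.0913, and 0.0281 without NPI-2). A molybdopterin synthase subunit gene (Zm00001d016850) lay higher, with a log2 difference of 0.85 (edgeR adjusted p = 0.147, and 0.0498 without NPI-2). NIN-like and RWP-RK factors, to which the NLP regulators of the nitrate response belong, had 6 higher and 4 lower genes and a median of 0.05. The gene for NLP6 (Zm00001d015201) had 16.6, 13.8 and 19.2 FPKM in NPI and 38.5, 40.5 and 36.9 FPKM in DI, well apart in all libraries (log2 difference -1.14, SE 0.26, edgeR adjusted p = 0.103, and 0.0425 without NPI-2), whereas the log2 difference of NLP2 (Zm00001d021442) was 0.46 (edgeR adjusted p = 0.488).

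BTB and TAZ domain proteins, nitrate-responsive scaffolds, had 2 higher and 1 lower gene of 3 tested, led by Zm00001d042549 (log2 difference 1.88, edgeR adjusted p = 0.212) and Zm00001d025707 (-0.38, edgeR adjusted p = 0.735, at 0.04 on the log2 scale without NPI-2). The 1 gene of the GARP list, a Myb family factor EFM (Zm00001d039637), averaged 2.55 ± 1.19 FPKM in NPI and 0.107 ± 0.0929 FPKM in DI (SD, n = 3 each; log2 difference 4.68, SE 1.27, edgeR adjusted p = 0.127). Aspartate and alanine aminotransferases had 1 higher gene, Zm00001d018386 (log2 difference 0.34, edgeR adjusted p = 0.609), and 5 lower, led by Zm00001d032984 (-1.67, edgeR adjusted p = 0.154). Asparaginase, urease and urea transport genes had 2 higher and 7 lower, with Zm00001d002052 (0.20, edgeR adjusted p = 0.832) and the urease gene Zm00001d029510 (-1.67, edgeR adjusted p = 0.482) of smallest p in each direction. The peptide transporters outside the rule had 1 gene in each direction, Zm00001d030235 at 0.14 (edgeR adjusted p = 0.906) and Zm00001d006823 at -0.71 (edgeR adjusted p = 0.194).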

How the data were processed

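Poly(A) RNA of maize root tips was sequenced as read pairs in 6 libraries, 3 NPI and 3 DI, per the labels' protocols. The submitters' processing notes name HISAT2 2.0, StringTie 1.3.4, FastQC 0.10.1 and an edgeR of no stated version. Their roles, the genome build and strand handling are not given in the sources used here. The authors deposited 1 table of 45953 genes with an estimated count per gene and library, which are whole numbers, and with FPKM, which the authors scaled by transcript length and depth. Coordinates are those of the deposited table.

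Groups were taken from the sample titles. edgeR 4.0.16 (R 4.3.3) was fitted to the deposited counts with TMM factors and no covariate. Its quasi-likelihood test was two-sided. Genes needed a mean of at least 1 FPKM, which left 21902, and p-values were adjusted over these by Benjamini-Hochberg, with a threshold of 0.05. Standard errors were obtained as log2 difference over the square root of F, without sign. For values of single libraries, log2 CPM (prior count 1) was taken relative to the DI mean. An exact two-sided permutation test of 3 libraries against 3 cannot go below p = 0.1, so none was run.

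The members, gene lists and rules were chosen with earlier results of these data known. Named by rule were, in each family, the most abundant member and the tested member of smallest p in each direction, and in each list outside the families the gene of smallest p in each direction. Other genes named were chosen after their values were seen, among them 9 of the 16 members called by DESeq2 or without NPI-2. Alternatives were other normalization (RLE factors), filters and moderation, DESeq2 1.42.0, limma 3.58.1, the replicate number as a block, and leaving out each library. Removal of a length trend, with length taken as deposited count over FPKM, was chosen after seeing the data. NPI against DI was also simulated for 21902 genes, with changes set only in genes above a minimum mean count. There edgeR found 28 of the 100 genes set to change 4-fold and 83 of the 100 set to change 16-fold. It also called 6 of 21702 unchanged genes. Simulated counts were independent between genes, so no simulated library stood apart as NPI-2 did, and the shares found need not hold for the real libraries. Figures were drawn with matplotlib 3.10.9.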

Additional observations from a re-analysis of the deposited data

How the results depend on the processing

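No member was called by edgeR with RLE factors, no filter, filterByExpr, robust moderation, the replicate block or the length trend removed. DESeq2 called 11 members higher and 4 lower, and limma with a pseudocount of 0.1 called Zm00001d044529 higher, 1 member. With each library left out in turn, 0 to 8 members were called higher, the 8 without NPI-2. Across all tested genes, the 2 higher and 1 lower genes became 13 and 5 with no filter, 1499 and 992 in DESeq2, and in limma 99 and 39 with a pseudocount of 1 and 99 and 30 with 0.1. They ranged over 0 to 1457 higher and 0 to 1136 lower with a library left out, most without NPI-2. The median of uptake genes was 0.24 and 0.26 in limma with pseudocounts of 1 and 0.1. With the replicate block it was 0.31, and 1 gene was called higher and 0 lower in all. Same-numbered libraries correlated in their deviations from the group means at -0.24, 0.17 and 0.16, and NPI-1 correlated best with DI-3 (0.27). With 3 libraries per group such values cannot decide whether the numbers pair the samples, and the labels do not say.

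Among all 71 tested members the sign turned with a library left out in 25, of which 9 turned without NPI-2, and the smallest adjusted p of the 25 was 0.572 (edgeR). Of the 22 members named by rule, 4 turned. With each library left out in turn, Zm00001d017095 ranged from -1.38 to 0.15, Zm00001d025171 from -0.18 to 0.32, Zm00001d034420 from -0.74 to 0.056 and Zm00001d034782 from -0.21 to 0.19. Zm00001d034420 was at 0.10 with the length trend removed, and Zm00001d034782 at -0.042 and -0.043 in limma with pseudocounts of 1 and 0.1. The cause was not tested. Members below a mean of 1 FPKM were not tested at this depth.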
